A study of Mus musculus with 12 samples.

Results

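The enzymes of cholesterol and fatty acid synthesis and their regulators were followed after silencing of *Zbed6* in C2C12, an established line of mouse myoblasts that can form myotubes. The set comprised 34 genes, chosen by name from the pathways. A gene was measured where a probe carried its symbol in the platform annotation of the Illumina MouseRef-8 v2 BeadChip. Of these, 31 had a named probe and all 31 were detected on 12 of 12 arrays, out of 16593 gene symbols on the array and 8858 genes that passed the detection filter. The sterol arm held 18 genes (15 measured), the fatty acid arm 11 (11 measured) and the regulators 5 (5 measured). *Acat2*, *Mvk* and *Fdft1* of the sterol arm had no probe under these names and were not analysed here.

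The 12 arrays formed 4 groups of 3 biological replicates: *Zbed6*-silenced cells at 96 h, control cells at 96 h, *Zbed6*-silenced cells at 48 h and control cells at 48 h, counted from transfection. Silenced cells received siRNA against *Zbed6*, which encodes a DNA-binding zinc finger protein, and control cells received a scrambled negative control siRNA. All cells were grown in medium with fetal bovine serum and reverse transfected with Lipofectamine as they were seeded, so that time since transfection and time since seeding cannot be told apart. The study used these cultures to ask which genes respond to *Zbed6* silencing.

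Cholesterol is built from acetyl-CoA through the mevalonate pathway, which ends in squalene, and a second series of enzymes closes the squalene ring and trims the product to cholesterol. Fatty acids are built from acetyl-CoA through malonyl-CoA, then elongated and desaturated. The transcription factors SREBP2 (*Srebf2*) and SREBP1 (*Srebf1*) activate the genes of these arms. When membrane sterols are low, SCAP escorts them to the Golgi for cleavage, and INSIG proteins hold them back when sterols are plentiful. Growing cells use both products for new membranes.

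Promoters were read because most sterol genes moved together with time, as described below for each gene. Windows of 5 genes are shown: those of 4 sterol genes that fell between the days and, for contrast, that of *Ebp*, which gave no such difference. They hold the 250 bases before the annotated start, written 5′ to 3′ from RefSeq (GRCm38.p6). Capitals mark a sterol regulatory element core (TCACNCCAC), a CCAAT box (CCAAT) and the ZBED6 consensus motif (GCTCGC), each on either strand. The shorter core of that motif given by the study (GCTCG) was not marked or searched.
Hmgcs1, chr13:119690101-119690350, + strand: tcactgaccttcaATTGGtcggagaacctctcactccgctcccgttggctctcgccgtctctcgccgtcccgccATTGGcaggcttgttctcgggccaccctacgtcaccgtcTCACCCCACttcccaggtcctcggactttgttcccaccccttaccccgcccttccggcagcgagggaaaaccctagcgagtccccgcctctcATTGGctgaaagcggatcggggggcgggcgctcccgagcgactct
Nsdhl, chrX:72918271-72918520, + strand: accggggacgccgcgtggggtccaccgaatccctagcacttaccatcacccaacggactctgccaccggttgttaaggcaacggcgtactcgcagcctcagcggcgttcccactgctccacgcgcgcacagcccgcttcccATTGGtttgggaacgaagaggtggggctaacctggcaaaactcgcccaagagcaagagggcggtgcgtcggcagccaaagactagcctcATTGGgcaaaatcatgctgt
Msmo1, chr8:64733579-64733828, - strand: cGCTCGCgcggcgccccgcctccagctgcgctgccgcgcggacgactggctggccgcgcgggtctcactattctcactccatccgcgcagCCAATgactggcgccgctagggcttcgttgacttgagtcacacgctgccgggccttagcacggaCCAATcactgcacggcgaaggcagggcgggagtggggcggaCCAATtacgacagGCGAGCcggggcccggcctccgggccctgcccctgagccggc
Cyp51, chr5:4104698-4104947, - strand: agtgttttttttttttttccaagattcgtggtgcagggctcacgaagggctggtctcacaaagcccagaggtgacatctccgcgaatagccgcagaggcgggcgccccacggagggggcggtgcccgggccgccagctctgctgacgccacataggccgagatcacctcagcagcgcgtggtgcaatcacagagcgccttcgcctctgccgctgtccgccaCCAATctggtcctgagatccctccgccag
Ebp, chrX:8193513-8193762, - strand: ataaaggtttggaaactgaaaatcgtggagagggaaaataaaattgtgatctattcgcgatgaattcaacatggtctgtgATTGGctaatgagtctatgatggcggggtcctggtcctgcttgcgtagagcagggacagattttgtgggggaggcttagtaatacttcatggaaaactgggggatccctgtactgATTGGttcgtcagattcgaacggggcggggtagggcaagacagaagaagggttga

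The motif search covered the window of 300 bases per annotated start, 250 before and 50 after it, on both strands, and none of the 5 motifs contains another. Windows were found for 27 of the 34 genes, 25 of them measured. The CCAAT box, the recognition sequence of the factor NF-Y, lay in a window of 21 of these 25 genes (84%), against 41.1% of 27025 gene symbols with a window. It lay in 13 of 13 sterol genes, 5 of 8 fatty acid genes and 3 of 4 regulators. The sterol regulatory element core was found in 1 of 25, *Hmgcs1*, against 1.44% of all symbols. Only this exact string was searched, so a missing match does not show that the element is absent. The GC box (GGGCGG) lay in 20 of 25 (80%), against 38.2% of all symbols, and the E-box (CACGTG) in 6 of 25 (24%), against 8.09%. The ZBED6 motif (GCTCGC) lay in 8 of 25 (32%), against 15.7% of all symbols. These 8 were *Pmvk*, *Mvd*, *Idi1*, *Lss*, *Msmo1*, *Dhcr7*, *Fads2* and *Srebf1*. A match is a description of letters in a window and not a binding site. The 27025 symbols were not limited to genes detected here and were not matched for base content. The shares are therefore no measure of an excess of any motif in this set. *Ebp* carried 2 CCAAT boxes in the stretch printed above, as *Nsdhl* did.

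Between 12078 and 12558 of 25697 probes were detected per array (47% to 48.9%), and precision is limited by having 3 arrays in a group. Values below are log2 signals after background correction and quantile normalization, and each gene is represented by its brightest detected probe. Differences were tested with limma, with Benjamini-Hochberg adjustment over 8858 genes and a threshold of 0.05. Of 11 myoblast and muscle markers, 9 were detected on all arrays, among them *Myod1* and *Des*, while *Myf5* and *Pax7* were detected on none. Of 9 adipocyte markers with a probe, 6 were detected on no array, *Adipoq*, *Fabp4* and *Plin1* included. None of 5 hepatocyte and none of 3 leukocyte markers was detected on any array. The *Zbed6* transcript itself had no probe under that name and was not analysed here. By qPCR the study reported reduced *Zbed6* mRNA at both times, and gave a smaller minimum reduction for the later day.

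Most genes of the pathway were lower on the later day. At 96 h compared with 48 h, 23 of 31 genes were lower and 0 higher in silenced cells, where 12.4% of all genes tested were lower and 15.6% higher. In control cells 25 of 31 were lower and 0 higher, where 15.2% of all genes tested were lower and 17.7% higher. No gene of the set was higher at an unadjusted p under 0.05 in either treatment. The median log2 difference over the 31 genes was -0.72 in silenced and -0.58 in control cells, beside 0.02 over all genes tested in each. The tests of the days use the same arrays as the tests of silencing described further on, so the comparisons are not independent of each other. With the values processed by the authors, 23 genes in silenced and 26 in control cells were lower and 0 higher, but 11 of the 23 and 12 of the 25 called differences were over 1.5 times smaller. Under median scaling, in which 70.3% of all called genes in silenced cells were higher instead of 55.8%, and 68.6% instead of 53.8% in control cells, 21 and 22 of the 31 genes were lower and 0 higher.

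**Figure D1:**
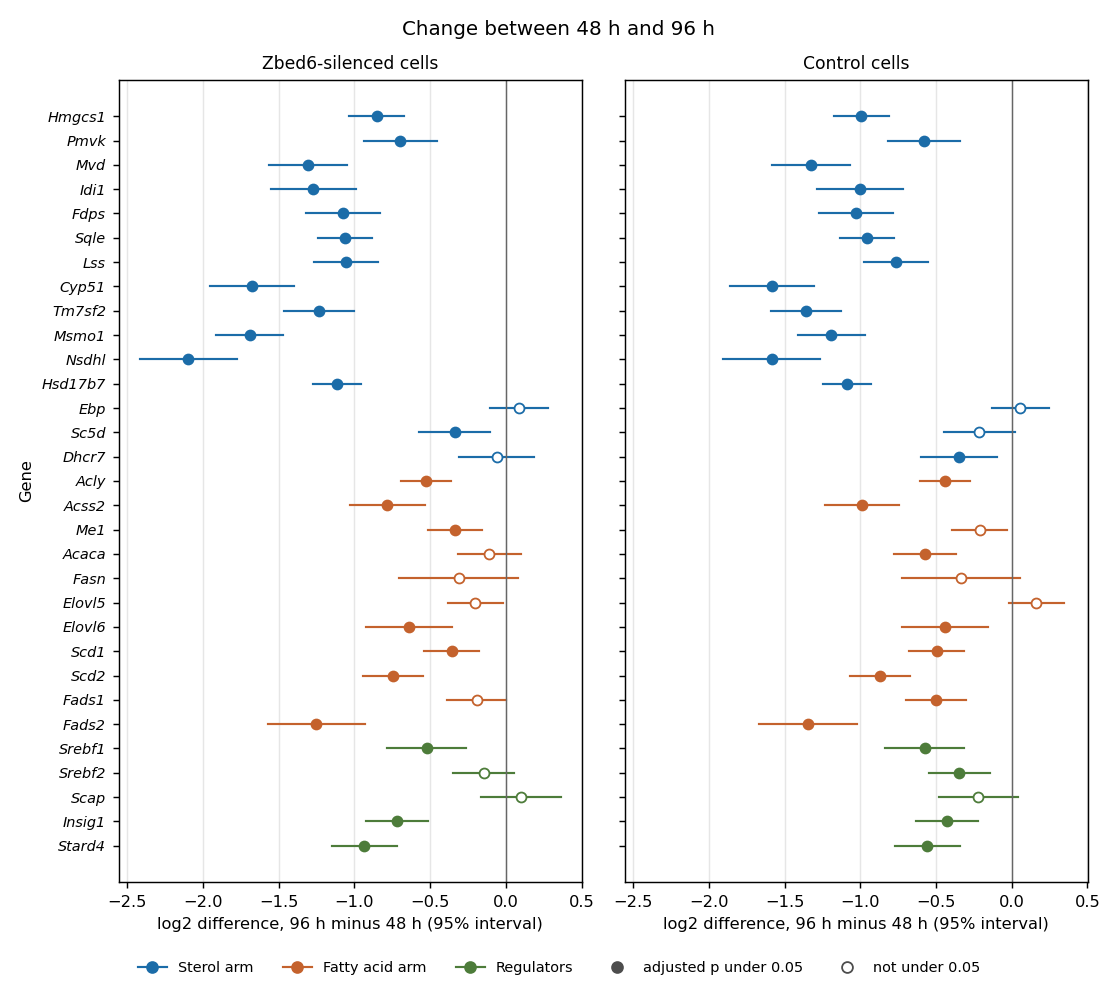
Log2 difference between 96 h and 48 h for each of the 31 measured genes, in *Zbed6*-silenced cells (left) and control cells (right), with 95% intervals; filled points passed the adjusted threshold. Most sterol genes lie near or below -1, *Ebp* lies at 0.09 and 0.06, and most fatty acid genes and regulators lie between -1 and 0.

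All 5 measured genes of the mevalonate pathway were lower at 96 h in silenced cells and in control cells. *Hmgcs1* encodes the synthase that makes HMG-CoA, the precursor of mevalonate. It read 12.81, 12.85 and 12.74 on the silenced arrays at 96 h, against 13.60, 13.68 and 13.67 on those at 48 h. Control arrays read 12.69, 12.69 and 12.84 at 96 h, against 13.59, 13.81 and 13.81 at 48 h. The days did not overlap in either treatment, and the fall was 1.81-fold in silenced (log2 -0.85, SE 0.084, adjusted p = 1.2e-05) and 1.99-fold in control cells (log2 -0.99, SE 0.084, adjusted p = 3.8e-06). *Pmvk* and *Mvd* encode the phosphomevalonate kinase and the decarboxylase of the pathway. They gave log2 differences of -0.70 and -1.31 in silenced and of -0.58 and -1.33 in control cells. *Idi1* and *Fdps*, which make the isoprenoid building block and farnesyl diphosphate, gave -1.27 and -1.08 in silenced and -1.003 and -1.03 in control cells. Adjusted p-values of these 4 genes were at most 0.0017 in limma. With the values processed by the authors the difference of *Idi1* was -0.47 in silenced and -0.35 in control cells, that of *Pmvk* -0.34 and -0.28, and that of *Mvd* -0.78 and -0.74.

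Of the 10 genes that act after squalene is formed, 8 were lower at 96 h in silenced and 8 in control cells. *Nsdhl*, a dehydrogenase that takes part in removing the methyl groups of the sterol ring, read 8.70, 8.76 and 8.95 in silenced cells at 96 h, against 11.03, 10.66 and 11.01 at 48 h. Its control arrays read 9.07, 9.04 and 9.32 at 96 h, against 10.40, 10.99 and 10.78 at 48 h. The fall was 4.28-fold in silenced cells (log2 -2.10, SE 0.15, adjusted p = 7.0e-07) and 3-fold in control cells (log2 -1.59, SE 0.15, adjusted p = 8.3e-06), with no overlap between days. *Msmo1*, the methyl sterol monooxygenase of the same steps, read 7.57, 7.70 and 7.63 in silenced cells at 96 h, against 9.21, 9.29 and 9.48 at 48 h. In control cells it read 7.94, 8.08 and 7.95 at 96 h, against 8.98, 9.33 and 9.23 at 48 h. All 96 h arrays lay below all 48 h arrays, by -1.69 in silenced cells (SE 0.1, adjusted p = 2.3e-07) and by -1.19 in control cells (SE 0.1, adjusted p = 4.1e-06). These differences were -0.85 and -0.63 with the values processed by the authors.

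*Cyp51*, the demethylase that acts on lanosterol, read 9.02, 9.02 and 9.47 in silenced cells at 96 h, against 10.89, 10.72 and 10.92 at 48 h. In control cells it read 9.10, 9.14 and 9.13 at 96 h, against 10.48, 10.77 and 10.87 at 48 h. The difference of -1.67 in silenced and -1.59 in control cells (SE 0.13 each) is a fall of about 3-fold in each treatment (adjusted p = 1.4e-06 and 2.7e-06).

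*Hsd17b7*, a ketoreductase of the demethylation steps, read 9.81, 9.87 and 9.74 in silenced cells at 96 h, against 10.86, 10.94 and 10.95 at 48 h. In control cells it read 9.74, 9.63 and 9.75 at 96 h, against 10.77, 10.83 and 10.80 at 48 h. The arrays of a group lay close together, and the difference between days was -1.11 in silenced and -1.09 in control cells (SE 0.073 each, adjusted p = 3.8e-07 and 5.7e-07). *Tm7sf2*, a sterol reductase, read 5.74, 5.85 and 5.98 in silenced cells at 96 h, against 7.18, 7.08 and 7.01 at 48 h. In control cells it read 5.58, 5.49 and 5.71 at 96 h, against 7.18, 6.86 and 6.82 at 48 h. The days were again apart, by -1.23 in silenced and -1.36 in control cells (SE 0.11 each, adjusted p = 4.0e-06 and 2.4e-06). The probe was dim, with a mean raw signal of 138, and the difference was -0.71 in silenced and -0.74 in control cells without background correction and -0.21 in each with the values processed by the authors. *Sqle*, the epoxidase of squalene, lay between 10.93 and 11.19 on the 96 h arrays of both treatments, against 11.94 to 12.16 on the 48 h arrays. It differed by -1.06 in silenced and -0.96 in control cells (SE 0.082 each, adjusted p = 1.6e-06 and 4.2e-06). *Lss*, which closes the ring to lanosterol, read 7.31, 7.18 and 7.45 in silenced cells at 96 h, against 8.33, 8.42 and 8.36 at 48 h. Its difference was -1.06 in silenced and -0.77 in control cells (adjusted p = 7.3e-06 and 1.0e-04), and -0.40 and -0.30 with the values processed by the authors.

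The genes of the last steps of the pathway differed from this. *Ebp*, the sterol isomerase, read 11.56, 11.37 and 11.42 in silenced cells at 96 h, against 11.37, 11.42 and 11.30 at 48 h, and its days overlapped. Its log2 difference was 0.09 in silenced (95% interval -0.10 to 0.28, adjusted p = 0.50) and 0.06 in control cells (-0.13 to 0.25, adjusted p = 0.66). *Dhcr7*, the reductase that makes cholesterol from its last precursor, did not pass in silenced cells (-0.06, 95% interval -0.31 to 0.19) and was lower in control cells (-0.35, adjusted p = 0.035). *Sc5d*, the desaturase before it, was lower in silenced cells (-0.34, adjusted p = 0.034) and did not pass in control cells (-0.21, adjusted p = 0.15). The *Sc5d* probe was dim, with a mean raw signal of 155, and its call in silenced cells did not pass with the values processed by the authors (-0.07, adjusted p = 0.054) or under median scaling (-0.21, adjusted p = 0.25). It was also lost without silenced 48 h replicate 2 (-0.29, adjusted p = 0.10) or 3 (-0.33, adjusted p = 0.084) and without silenced 96 h replicate 1 (-0.31, adjusted p = 0.098) or 2 (-0.34, adjusted p = 0.081). The call of *Dhcr7* in control cells did not pass under median scaling (-0.25, adjusted p = 0.091) or with no detection filter (adjusted p = 0.055), and its difference was -0.19 with the values processed by the authors. It was lost without control 48 h replicate 1 (-0.28, adjusted p = 0.12) or 3 (-0.32, adjusted p = 0.093) and without control 96 h replicate 1 (-0.32, adjusted p = 0.10) or 2 (-0.34, adjusted p = 0.086).

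**Figure D2:**
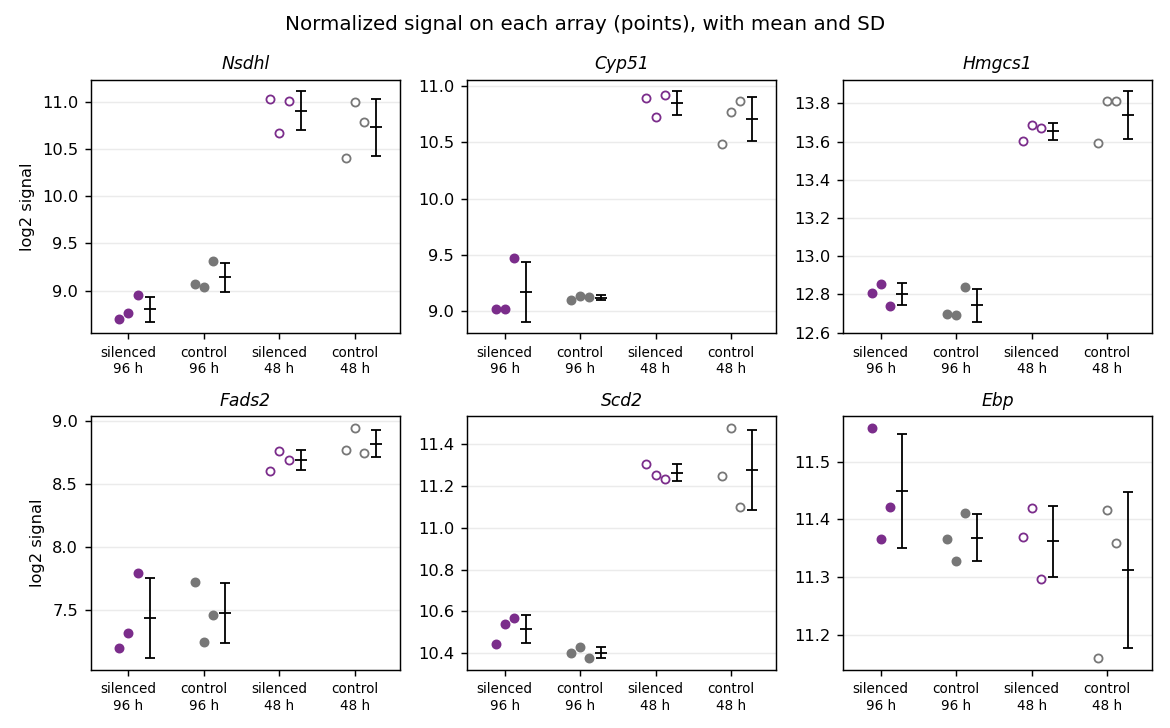
Normalized log2 signal of 6 genes on each of the 12 arrays, with mean and SD of 3 arrays per group; each panel has its own scale. *Nsdhl*, *Cyp51*, *Hmgcs1*, *Fads2* and *Scd2* are lower on all 96 h arrays than on all 48 h arrays, and the *Ebp* groups overlap.

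Median differences were smaller in the fatty acid arm. Of its 11 genes, 7 were lower in silenced and 8 in control cells, with median log2 differences of -0.36 and -0.50, beside -1.08 and -1.003 in the 15 sterol genes. The median of the sterol arm thus lay 0.72 below that of the fatty acid arm in silenced and 0.51 below it in control cells, which is a description of these probes without a test. With the values processed by the authors the gap was -0.45 in silenced and -0.12 in control cells. *Fads2*, the delta-6 desaturase of polyunsaturated fatty acids, read 7.20, 7.32 and 7.80 in silenced cells at 96 h, against 8.61, 8.77 and 8.69 at 48 h. Its control arrays read 7.72, 7.25 and 7.46 at 96 h, against 8.77, 8.95 and 8.75 at 48 h. The difference was -1.25 in silenced (SE 0.15, adjusted p = 5.3e-05) and -1.34 in control cells (SE 0.15, adjusted p = 3.2e-05). With the values processed by the authors it was -0.52 and -0.59, and that of *Scd2* was -0.68 and -0.80.

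The stearoyl-CoA desaturases, which make monounsaturated fatty acids, were lower too. *Scd2* gave -0.75 in silenced and -0.87 in control cells, and *Scd1* gave -0.36 and -0.50, all with an adjusted p of 0.0064 or less. *Fads1*, the delta-5 desaturase, was lower in control cells (-0.50, adjusted p = 0.0013) and did not pass in silenced cells (-0.19, adjusted p = 0.13). Among the genes that supply the pathway, *Acss2* and *Acly*, which make acetyl-CoA from acetate and citrate, were lower in silenced cells (-0.78 and -0.53) and in control cells (-0.99 and -0.44), where *Acss2* gave -0.65 with the values processed by the authors. *Me1*, the malic enzyme that yields NADPH, was lower in silenced cells (-0.33, adjusted p = 0.0090) and did not pass in control cells (-0.21, adjusted p = 0.064). Its call in silenced cells did not pass under median scaling (-0.27, adjusted p = 0.086).

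The core enzymes gave a mixed picture. *Acaca*, the acetyl-CoA carboxylase that makes malonyl-CoA, was lower in control cells (-0.57, SE 0.096, adjusted p = 7.5e-04) and did not pass in silenced cells (-0.11, SE 0.096, adjusted p = 0.43). *Fasn*, the fatty acid synthase, did not pass in silenced (-0.31, adjusted p = 0.22) or control cells (-0.33, adjusted p = 0.18), and its probe was dim, with a mean raw signal of 109. Of the elongases, *Elovl6* was lower in silenced (-0.64, adjusted p = 0.0029) and control cells (-0.44, adjusted p = 0.021). The control call was lost under median scaling (-0.33, adjusted p = 0.13) and without control 48 h replicate 2 (-0.37, adjusted p = 0.078) or control 96 h replicate 3 (-0.40, adjusted p = 0.065). *Elovl6* gave -0.33 in silenced and -0.24 in control cells with the values processed by the authors. *Elovl5* passed in neither treatment (-0.20, adjusted p = 0.090 in silenced and 0.16, adjusted p = 0.16 in control cells).

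Of the 5 regulators, 3 were lower at 96 h in silenced and 4 in control cells. *Srebf1* read 7.88, 7.69 and 7.56 in silenced cells at 96 h, against 8.27, 8.20 and 8.24 at 48 h. In control cells it read 7.68, 7.51 and 7.61 at 96 h, against 8.27, 8.38 and 7.88 at 48 h. The 96 h arrays were the lower ones in each treatment, by -0.52 in silenced (SE 0.12, adjusted p = 0.0062) and -0.58 in control cells (SE 0.12, adjusted p = 0.0031). *Srebf2* read 10.21, 10.15 and 10.18 in silenced cells at 96 h, against 10.27, 10.54 and 10.17 at 48 h, and these days overlapped (-0.15, adjusted p = 0.26). Its control arrays did not overlap, with 10.03, 9.96 and 9.97 at 96 h, against 10.39, 10.27 and 10.34 at 48 h (-0.35, adjusted p = 0.013, and -0.28, adjusted p = 0.058 under median scaling). *Scap*, the escort protein, passed in neither treatment (0.10 in silenced and -0.22 in control cells). *Stard4*, a sterol transfer protein, was lower in silenced (-0.93, adjusted p = 2.1e-05) and control cells (-0.56, adjusted p = 0.0011). With the values processed by the authors *Srebf1* gave -0.21 in silenced and -0.23 in control cells, and *Stard4* -0.60 and -0.36.

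The probes of *Insig1*, the sensor protein that retains SCAP, gave differences of unequal size. Its brightest probe read 9.51, 9.63 and 9.51 in silenced cells at 96 h, against 10.19, 10.38 and 10.23 at 48 h. In control cells that probe read 9.64, 9.76 and 9.69 at 96 h, against 9.93, 10.21 and 10.23 at 48 h. It was lower at 96 h by -0.72 in silenced (SE 0.095, adjusted p = 1.2e-04) and -0.43 in control cells (SE 0.095, adjusted p = 0.0044). The other detected probes of the gene gave -2.05 each in silenced and -2.08 and -2.03 in control cells, with adjusted p of 3.2e-06 or less in limma over all detected probes. A further probe of *Insig1* and a further probe of *Srebf1* were detected on no array. The 8 additional detected probes of 5 genes (*Sqle*, *Nsdhl*, *Acss2*, *Me1* and *Insig1*) all had the sign of the brightest probe, and 8 were lower in silenced and 7 in control cells. The dimmer *Sqle* probe gave -1.84 in silenced and -1.91 in control cells, against -1.06 and -0.96 for the brighter one.

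**Figure D3:**
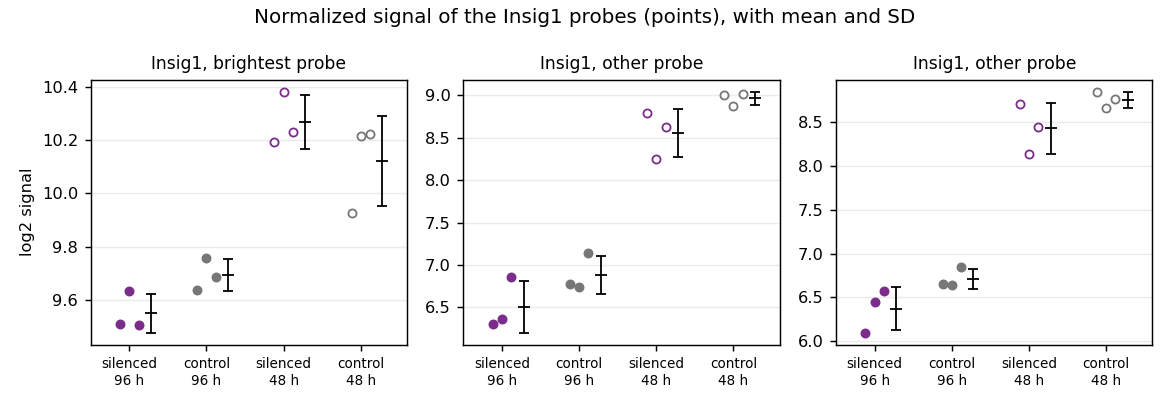
Normalized log2 signal of the 3 detected *Insig1* probes on each of the 12 arrays, with mean and SD of 3 arrays per group; each panel has its own scale. All 3 probes are lower on the 96 h arrays than on the 48 h arrays, and the other probes differ more between days than the brightest.

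Other genes of the pathways were also tested. Of 23 listed genes of sterol handling outside the set, 8 were measured, and 2 were lower and 2 higher at 96 h in silenced cells, and 0 lower and 2 higher in control cells. Of 32 listed genes of fatty acid handling, 24 were measured, and 10 were lower and 1 higher in silenced cells, and 8 lower and 1 higher in control cells. Together 15 of these 32 genes were called in silenced (46.9%) and 11 in control cells (34.4%), where 28% and 32.9% of all genes tested were called. Of all genes tested, 12.4% were lower and 15.6% higher in silenced cells, and 15.2% lower and 17.7% higher in control cells. The summed raw signal of the adipocyte list was also higher at 96 h than at 48 h, and that of the muscle list overlapped between days in silenced cells. Of the adipocyte list only *Lpl* and *Pparg* passed the detection filter, and of these only *Lpl* rose. The raw signal of the *Lpl* probe ran from 319 to 1732 over the arrays. *Lpl* was higher at 96 h by 1.05 in silenced and 2.08 in control cells, and *Pparg* did not pass (0.06 in each, adjusted p = 0.68 and 0.63). The summed raw signal of the list was 2352 to 2710 in silenced and 2251 to 2559 in control cells at 96 h, against 1349 to 1852 in silenced and 1144 to 1276 in control cells at 48 h. The muscle list summed to 111767 to 126512 in silenced and 97907 to 100346 in control cells at 96 h, against 98622 to 120385 in silenced and 87034 to 93630 in control cells at 48 h. In the normalized values 3 of 9 muscle markers were higher and 2 lower at 96 h in silenced cells, and 2 were higher and 1 lower in control cells. Among these, *Mef2c* gave 1.52 and *Ckm* -0.73 in silenced cells, and 2.35 and -1.21 in control cells. The part of the markers in the result was not tested, and fewer cells of a type cannot be told apart from less RNA per cell.

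On these arrays the effect of silencing on the pathway was small beside the difference between days. At 96 h, 1 of 31 genes was higher in silenced than in control cells, where 3.44% of all genes tested were higher, and 2 of 31 were lower, where 3.39% of all genes tested were lower. Arrays of silenced and control cells did not overlap for 11 of 31 genes (4 higher and 7 lower), close to the 32.1% of all genes tested. Within the sterol arm, *Msmo1* read 7.57, 7.70 and 7.63 in silenced cells, against 7.94, 8.08 and 7.95 in control cells. It was 1.28-fold lower after silencing (log2 -0.36, SE 0.082, adjusted p = 0.041), with a log2 difference of -0.13 in the values processed by the authors (adjusted p = 0.043). *Dhcr7* went the other way, with 9.04, 8.91 and 8.70 in silenced cells, against 8.40, 8.44 and 8.53 in control cells. It was 1.35-fold higher after silencing (log2 0.43, SE 0.1, adjusted p = 0.043). In the fatty acid arm, *Elovl5*, an elongase of polyunsaturated fatty acids, read 10.88, 11.07 and 11.08 in silenced cells, against 11.42, 11.37 and 11.33 in control cells. It was 1.28-fold lower (log2 -0.36, SE 0.087, adjusted p = 0.046).

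These calls at 96 h lay close to the threshold. Each exact permutation test of 3 against 3 arrays gave p = 0.1, the smallest that this design allows. The call of *Msmo1* was lost without any single array (limma adjusted p = 0.069 to 0.13), as was that of *Elovl5* (0.057 to 0.15), and that of *Dhcr7* without any array but silenced replicate 3 (0.083 to 0.14). *Stard4* read 8.71, 8.79 and 8.47 in silenced cells, against 9.14, 8.97 and 9.07 in control cells, without overlap, and missed the threshold (log2 -0.40, SE 0.1, adjusted p = 0.053). It passed with the values processed by the authors (-0.24, adjusted p = 0.045), without background correction, with an offset of 50, with a stricter detection filter and in 1 fit of 12 arrays (adjusted p = 0.015 to 0.035 in these). *Stard4* did not pass in the other settings (limma adjusted p up to 0.091) or without any single array (0.072 to 0.16). Under median scaling *Msmo1* (-0.32, adjusted p = 0.059) and *Elovl5* (-0.31, adjusted p = 0.079) did not pass, and *Dhcr7* did not with the values processed by the authors (0.24, adjusted p = 0.052). With no detection filter *Dhcr7* (adjusted p = 0.065) and *Elovl5* (adjusted p = 0.057) did not pass. With the replicate number as a block in limma, *Msmo1* (adjusted p = 0.079), *Dhcr7* (0.086) and *Elovl5* (0.099) did not pass.

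**Figure D4:**
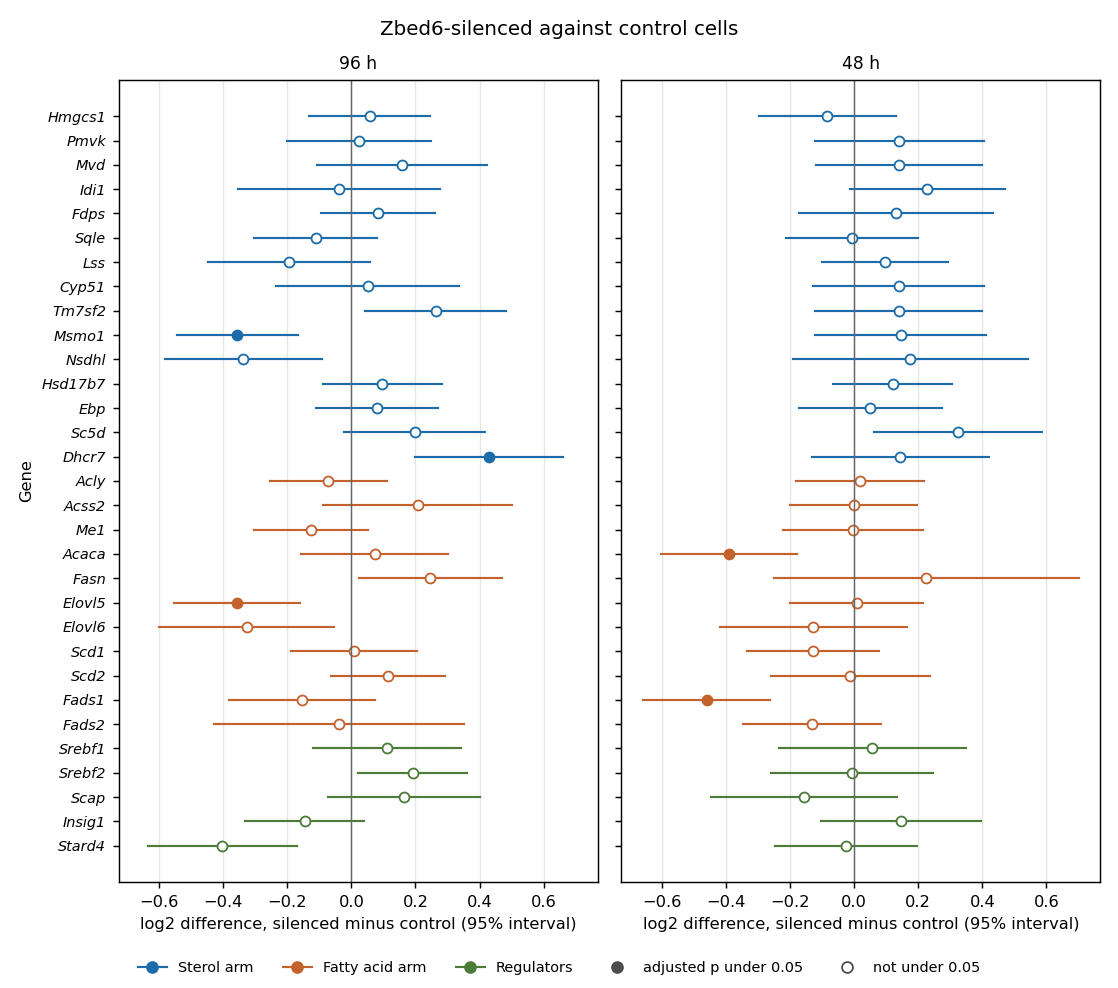
Log2 difference between *Zbed6*-silenced and control cells for each of the 31 measured genes at 96 h (left) and 48 h (right), with 95% intervals; filled points passed the adjusted threshold. At 96 h *Msmo1*, *Dhcr7* and *Elovl5* passed, and at 48 h *Fads1* and *Acaca* passed.

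Other genes with small p-values at 96 h did not pass. In the sterol arm *Nsdhl* read 8.70, 8.76 and 8.95 in silenced cells, against 9.07, 9.04 and 9.32 in control cells (log2 -0.34, adjusted p = 0.091). It passed without background correction (-0.30, adjusted p = 0.037) and with an offset of 50 (-0.32, adjusted p = 0.049). The other 3 probes of *Nsdhl* gave -0.06, -0.11 and -0.13, and the mean over its probes gave -0.16 (adjusted p = 0.35). In the fatty acid arm *Elovl6* read 7.87, 8.26 and 8.28 in silenced cells, against 8.49, 8.52 and 8.38 in control cells (-0.33, adjusted p = 0.13). *Fasn* read 6.003, 5.88 and 5.73 in silenced cells, against 5.73, 5.55 and 5.59 in control cells (0.25, adjusted p = 0.16), and the groups overlapped. Of the regulators, *Srebf2* read 10.21, 10.15 and 10.18 in silenced cells, against 10.03, 9.96 and 9.97 in control cells (0.19, adjusted p = 0.15), without overlap, and passed with the values processed by the authors (0.16, adjusted p = 0.025). *Srebf1* gave 0.11 (95% interval -0.12 to 0.34) and the brightest *Insig1* probe -0.15 (-0.33 to 0.04). The other detected *Insig1* probes gave -0.38 and -0.34 and did not pass (adjusted p = 0.20 and 0.15 in limma over all detected probes). The median over the sterol arm was 0.06 and that over the fatty acid arm -0.04, beside 0.0045 over all genes tested.

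At 48 h, 0 of 31 genes were higher in silenced than in control cells, where 4.63% of all genes tested were higher, and 2 were lower, where 5.61% of all genes tested were lower. At an unadjusted p under 0.05 there were 3 of 31 genes (9.68%), against 28.2% of all genes tested. Arrays did not overlap for 4 of 31 genes (2 higher and 2 lower), against 34.1% of all genes tested. The genes that were lower both belonged to the fatty acid arm. *Fads1* read 12.57, 12.47 and 12.58 in silenced cells, against 12.94, 13.08 and 12.99 in control cells, 1.38-fold lower (log2 -0.46, SE 0.087, adjusted p = 0.018). *Acaca* read 11.22, 11.005 and 11.15 in silenced cells, against 11.47, 11.60 and 11.49 in control cells, 1.31-fold lower (log2 -0.39, SE 0.094, adjusted p = 0.036). For each of these genes all silenced arrays lay below all control arrays (exact permutation p = 0.1, the smallest possible).

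The call of *Fads1* was lost without silenced replicate 2 (-0.42, adjusted p = 0.062), and likewise without control replicate 2 (-0.42, adjusted p = 0.066) or control replicate 3 (-0.47, adjusted p = 0.059). That of *Acaca* was lost without any array but silenced replicate 1 (adjusted p = 0.068 to 0.11). Under median scaling neither passed (-0.30, adjusted p = 0.15 for *Fads1* and -0.32, adjusted p = 0.14 for *Acaca*). With the replicate number as a block in limma, *Acaca* did not pass (adjusted p = 0.064).

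**Figure D5:**
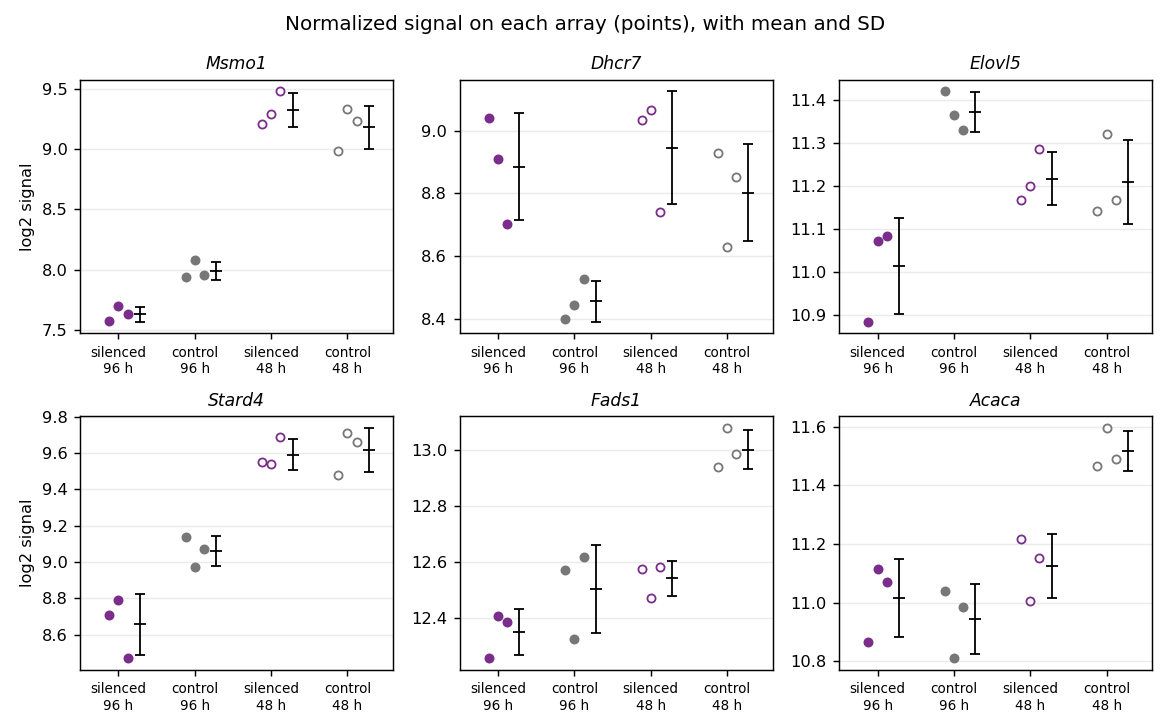
Normalized log2 signal on each of the 12 arrays, with mean and SD of 3 arrays per group, for the 5 genes that passed the threshold on a day and for *Stard4*; each panel has its own scale. For *Fads1* and *Acaca* the control arrays at 48 h lie above all other arrays, and for *Msmo1*, *Elovl5* and *Stard4* the silenced arrays at 96 h lie below all other arrays.

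In the sterol arm no gene passed at 48 h. Of the 15 genes, 13 had a positive log2 difference and the median was 0.14, beside 5.5e-04 over all genes tested, of which 4437 of 8858 were above 0. Without control replicate 1 the median of the arm was 0.046. On that array the mean of the arm, each gene centred on its mean over all arrays, was 0.32, against 0.49 and 0.47 on the other control arrays at 48 h. *Sc5d* read 6.90, 7.11 and 7.04 in silenced cells, against 6.49, 6.86 and 6.74 in control cells, without overlap (0.32, adjusted p = 0.11). *Idi1* read 8.25, 8.52 and 8.51 in silenced cells, against 8.12, 8.32 and 8.16 in control cells (0.23, adjusted p = 0.20), and the groups overlapped. *Hsd17b7* read 10.86, 10.94 and 10.95 in silenced cells, against 10.77, 10.83 and 10.80 in control cells (0.12, adjusted p = 0.37), with no overlap. The median of the fatty acid arm was -0.01. *Scd1* read 13.19, 13.30 and 13.37 in silenced cells, against 13.36, 13.50 and 13.39 in control cells, and overlapped (-0.13, adjusted p = 0.39). In the study's RNA sequencing of pools of these replicates, *Scd1* was listed as higher after silencing at both times. That sequencing was not analysed here. The regulators gave no call. *Scap* read 8.22, 8.29 and 7.85 in silenced cells, against 8.39, 8.27 and 8.17 in control cells, and overlapped. *Srebf1* differed by 0.06 (95% interval -0.23 to 0.35), *Srebf2* by -0.01 (-0.26 to 0.25), the brightest *Insig1* probe by 0.15 (-0.10 to 0.40), *Scap* by -0.16 (-0.45 to 0.13) and *Stard4* by -0.03 (-0.25 to 0.20). The other detected *Insig1* probes went the other way (-0.41 and -0.32), as did the mean over the probes (-0.19), and none of these passed.

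Whether the effect of silencing changed between the days was tested as an interaction, which is also the difference between the changes with time in silenced and in control cells. None of the 31 genes passed in limma, where 2.38% of all genes tested were higher and 2.11% lower. At an unadjusted p under 0.05 there were 7 of 31 genes (22.6%), close to the 23.4% of all genes tested. *Msmo1* came closest (log2 -0.50, SE 0.14, adjusted p = 0.063), with a difference of -0.36 at 96 h and 0.14 at 48 h. *Acaca* followed (0.46, SE 0.14, adjusted p = 0.066), with 0.07 at 96 h and -0.39 at 48 h. *Elovl5* gave -0.37 (adjusted p = 0.090), *Stard4* -0.38 (adjusted p = 0.13), *Nsdhl* -0.51 (adjusted p = 0.16), *Fads1* 0.31 (adjusted p = 0.18) and the brightest *Insig1* probe -0.29 (adjusted p = 0.21). The other *Insig1* probes gave 0.03 and -0.02. *Msmo1* passed with an offset of 50 (-0.45, adjusted p = 0.045), without background correction (-0.41, adjusted p = 0.040) and with a stricter detection filter (-0.50, adjusted p = 0.047). *Acaca* passed in these settings (adjusted p = 0.035, 0.023 and 0.049) and with the values processed by the authors (adjusted p = 0.034). *Elovl5* passed without background correction (-0.36, adjusted p = 0.045) and with the values processed by the authors (-0.34, adjusted p = 0.040). In the other settings *Msmo1*, *Acaca* and *Elovl5* did not pass (limma adjusted p up to 0.17, 0.16 and 0.19), nor without any single array.

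Of the 32 measured pathway genes outside the set, 1 was called for silencing at 96 h (3.12%), where 6.83% of all genes tested were called, and 3 at 48 h (9.38%), where 10.2% were. At 96 h *Dhdds*, a subunit of the prenyltransferase that makes dolichol precursors from farnesyl diphosphate, was 1.53-fold higher (log2 0.62, SE 0.14, adjusted p = 0.039). At 48 h *Lrp1*, a lipoprotein receptor, was 1.48-fold lower (log2 -0.56, SE 0.12, adjusted p = 0.023). *Slc25a1*, the mitochondrial citrate carrier that supplies the substrate of *Acly*, was 1.43-fold lower (log2 -0.52, SE 0.094, adjusted p = 0.016). *Fabp5*, a fatty acid binding protein, was 1.58-fold higher (log2 0.66, SE 0.14, adjusted p = 0.023). The summed raw signal of the muscle list, which is not normalized, was higher on every silenced array than on every control array at each day. That of the adipocyte list was so at 48 h but not at 96 h, where the groups overlapped. In the normalized values 3 of 9 muscle markers were higher and 0 lower at each day. Of all genes tested, 4.63% were higher at 48 h and 3.44% at 96 h. At 48 h 7 of the 9 muscle differences lay above 0 and 2 below. *Lpl* gave 0.98 at 48 h and *Pparg* 0.02. The part of these markers in these results was not tested.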

How the data were processed

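Total RNA from 12 C2C12 cultures was labelled with biotin and read on Illumina MouseRef-8 v2 arrays. The authors deposited raw bead intensity per probe, not normalized, and per the file headers a detection p-value for each probe and array. The authors also deposited log2 values processed with the lumi bundle in FlexArray, whose transformation and centring are unknown here. After removal of probe means they correlated with the log2 raw signal of their own array at 0.777 to 0.848 and of any other array at 0.642 or less, and their column medians were 7.84 to 7.85. They were used in an alternative only.

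From the raw table, neqc in limma 3.58.1 (R 4.3.3) corrected the background through the detection p-values, added an offset of 16, normalized by quantiles and took log2. Detection was required at p under 0.05 on 3 or more of the 12 arrays. Each of 8858 genes was represented by the brightest of its detected probes. Symbols came from the platform annotation (23978 of 25697 probes). Silencing was tested with limma within each day on 6 arrays, and time changes and the interaction in 1 fit of 12 arrays, with Benjamini-Hochberg adjustment. The fits were tested on simulated data.

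The members, the lists of other pathway genes and markers, and the tests were chosen with earlier results of these data known. Values on the arrays of a comparison were given, in text or figures, for members past the threshold for silencing and for *Srebf1*, *Srebf2* and *Insig1*. They were also given for up to 3 members per arm with the smallest p in each test of silencing or of the interaction. For the interaction those of *Lss* were given in silenced cells only and those of *Scap* at 48 h only. For the changes with time the rule names the 5 members with the smallest p per direction, and for other pathway genes up to 4 per direction past the threshold for silencing. The remaining members and the printed promoters were picked with their values in view. Alternatives replaced the main values by those of the authors, left out the background correction, scaled by medians in place of quantiles, raised the offset to 50, dropped the detection filter or tightened it (p under 0.01 on 6 or more arrays), averaged the probes of a gene, fitted silencing on all 12 arrays, added a replicate block, or left out each array in turn. Slides are not named in the sources used here and could not be fitted as a block. In the deposited column order all 48 h arrays come before all 96 h arrays. A slide or batch that followed this order could not be told apart from day. The treatment protocol in the labels calls the replicates biological.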

Additional observations from a re-analysis of the deposited data

Results flagged for a closer look

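None of the 31 measured genes of cholesterol and fatty acid synthesis differed in its response to silencing between the days in limma, where 7 of 31 had an unadjusted p under 0.05 (22.6%, beside 23.4% of all genes tested). Of 43 other pathway genes and markers tested, 3 did, and 4.49% of all genes tested. *Fabp5*, a fatty acid binding protein, gave -0.36 at 96 h and 0.66 at 48 h, silenced minus control, a difference of -1.01 between the days (SE 0.17, adjusted p = 0.014). *Lpl*, lipoprotein lipase, gave -0.06 and 0.98, a difference of -1.04 (SE 0.16, adjusted p = 0.012). For *Mef2c*, which encodes a muscle regulator, the values were 0.08 and 0.91, with a difference of -0.84 (SE 0.19, adjusted p = 0.035).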

How the results depend on the processing

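Of the calls with time, 21 of 23 in silenced and 22 of 25 in control cells held in all alternatives and without each array, and none changed direction. The count was 22 to 23 in silenced and 24 to 27 in control cells when an array was left out. The calls of silencing depended on the setting. At 48 h the count of 2 was 0 under median scaling, 1 with the replicate block and 0 to 2 without an array. At 96 h the count of 3 was 5 without background correction, 5 with an offset of 50, 1 under median scaling, 1 with no filter, 0 with the replicate block (adjusted p = 0.079 to 0.099) and 0 to 1 without an array. For the interaction the count of 0 was 2 with the authors' values, 3 without background correction, 2 with an offset of 50, 2 with a stricter filter and 0 without any array. The sterol minus fatty acid median was -0.72 for time in silenced cells, -0.45 with the authors' values, -0.62 without background correction and -0.79 to -0.55 without an array. In control cells it was -0.51, and -0.12 with the authors' values. For silencing it was 0.028 to 0.15 at 96 h and 0.074 to 0.27 at 48 h without an array, and -0.25 to -0.046 for the interaction. At 48 h *Scd1* turned to 0.0093 and *Srebf2* to 0.059 under median scaling, and *Insig1* to -0.19 as the mean of its probes, which include probes with a negative difference. Without an array *Srebf2* ranged from -0.12 to 0.071 and *Srebf1* from -0.089 to 0.16 at 48 h, and *Srebf1* from -0.046 to 0.20 for the interaction. The cause of the other shifts was not tested.

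Over all genes, 907 calls at 48 h became 1474 without background correction, 468 under median scaling, 1397 in 1 fit of 12 arrays and 250 to 543 without an array. At 96 h 605 became 1117 without background correction, 1031 with an offset of 50, 366 with no filter, 222 with the block and 90 to 408 without an array. The interaction's 398 became 642 with the authors' values, 772 without background correction, 657 with an offset of 50, 123 under median scaling, 206 with the block and 89 to 321 without an array. Of the calls at 96 h, 63% were higher under median scaling, against 50.4%. Replicate numbers shared by groups did not pair the arrays (correlations of same-numbered deviations from -0.22 to 0.17), and the block left the counts with time at 23 and 25.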
